A study of Mus musculus with 6 samples.

Results

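The genes described here are 10 immediate early genes of mouse, namely Fos, Fosb, Fosl1, Fosl2, Jun, Junb, Jund, Atf3, Egr1 and Btg2. They were chosen by name, with earlier results of these data known, and each had a row among the 38293 Ensembl genes of the deposited count table. All 10 had enough reads to be tested. RNA came from cells of the spinal cord of female mice of genotype NG2-CreERTM:Rosa-tdTomato/+:Cx3cr1GFP/+, sorted alive for the red fluorescent protein tdTomato. The 3 Control libraries came from mice labelled Control and the 3 EAE libraries from mice with experimental autoimmune encephalomyelitis, an induced autoimmune attack on myelin. Both groups carried the same alleles. Cre is driven by the promoter of the NG2 proteoglycan gene Cspg4, which is active in oligodendrocyte precursors and also in pericytes and smooth muscle of vessel walls, so the sorted cells were of more than 1 type. The sources used here give no age, day of collection, time of Cre induction or number of animals per library, so p-values measure the spread between these libraries, part of which may be technical. Both groups were dissociated in the presence of actinomycin D, an inhibitor of transcription.

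Immediate early genes are switched on within minutes of a stimulus by transcription factors that are already present in the cell, and their messenger RNAs are short-lived. Fos and Jun proteins pair through leucine zippers to form AP-1, a DNA-binding dimer that passes growth factor, calcium and stress signals on to later genes. Jun proteins can pair with each other or with Fos proteins, whereas Fos proteins need a partner. Egr1 is a zinc finger factor induced by the same signals, and Btg2 restrains cell division and recruits the enzymes that shorten messenger RNA tails. Dissociation of tissue is itself known to induce many of these genes.

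In EAE, Egr1 and Btg2 fell and none of the 10 genes rose. Btg2 fell 3.64-fold, from 44.3 ± 13.4 to 12.5 ± 2.60 CPM (read counts scaled to the library total; all means are given with the SD over 3 libraries). Egr1 fell 2.50-fold, from 98.0 ± 33.0 to 40.7 ± 8.41 CPM. Folds are those of the edgeR fit, whose library scaling differs from that of CPM, so they differ slightly from ratios of the mean CPM. Calls are adjusted p-values under 0.05 from the edgeR quasi-likelihood test over all 16966 tested genes. In the same test 4.33% of all genes were called lower and 2.82% higher. DESeq2, which called 7.10% of genes lower and 5.65% higher, called Jund, Egr1 and Btg2 lower and 0 of the 10 higher. The log2 fold change was below 0 for 9 of the 10 genes, with a median of -0.95 against 0.004 over all tested genes. At an unadjusted p under 0.05, 7 of the 10 were lower and 0 higher, where 10.6% of all tested genes were lower and 9.60% higher. That count was 3 without Control replicate 3 and also 3 without EAE replicate 1, where 9.68% and 8.13% of all tested genes were lower. With Control replicate 3 and EAE replicate 3 both left out it was 5 (12.3% of all tested genes were lower), the median was -0.54, and Jun, Egr1 and Btg2 were called, where 6.25% of all genes were called lower.

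The libraries held 22141522 to 28734798 reads. The 10 genes together took 392 and 397 CPM in Control replicates 1 and 2 and 710 CPM in Control replicate 3, and 237, 234 and 412 CPM in EAE replicates 1, 2 and 3. Replicate 3 thus had the highest sum in either group. Control replicate 3 was the highest Control library for 9 of the 10 genes, all but Fosl1, and for 33.9% of all tested genes. EAE replicate 3 was the highest EAE library for 6 of the 10, namely Fos, Fosl1, Fosl2, Jun, Atf3 and Egr1, and the lowest for the other four, Fosb, Junb, Jund and Btg2. Of all tested genes, 47.8% were highest and 32.0% lowest in that library. Malat1, a nuclear RNA, took 0.935% of its reads, the smallest share, and 1.94% to 3.05% in the other libraries. Whether this share has a part in the values of that library was not tested.

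**Figure D1:**
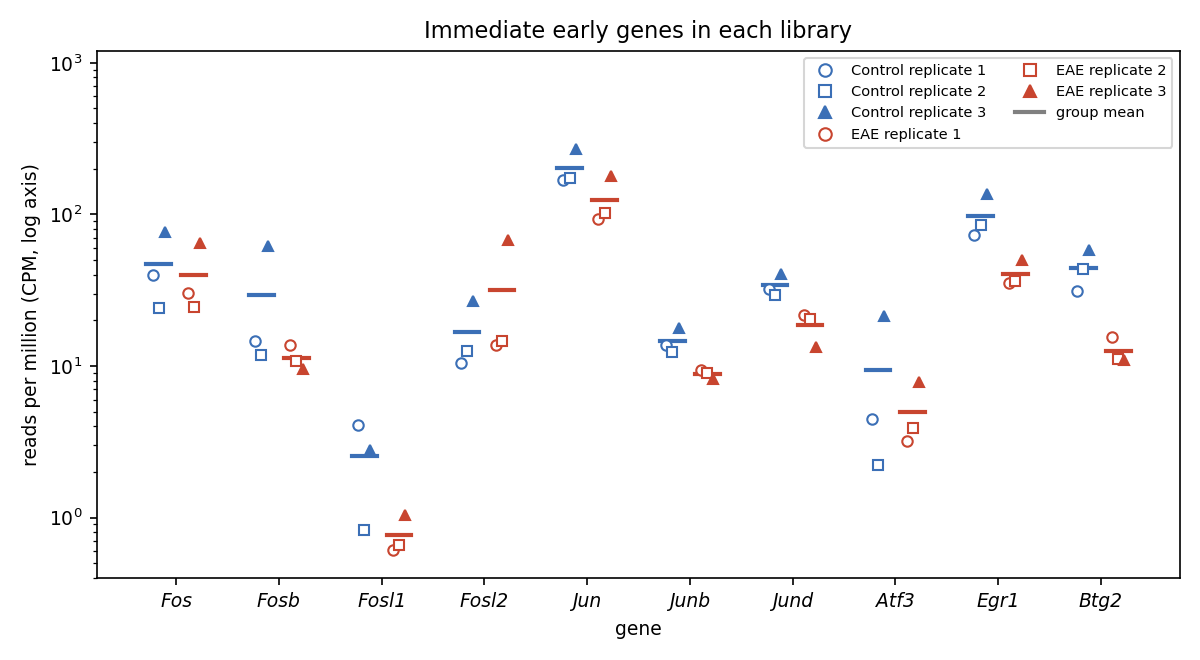
CPM of each of the 10 genes in every library, on a log axis, with Control in blue, EAE in red, replicate 3 as filled triangles and group means as bars. The groups do not overlap for Junb, Jund, Egr1 and Btg2, and Control replicate 3 stands above the other Control libraries for every gene but Fosl1.

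The zinc finger factor Egr1 (ENSMUSG00000038418, chromosome 18, 34859823 to 34864984, GRCm38/mm10) was at 73.1, 85.4 and 135 CPM in Control replicates 1, 2 and 3 and at 35.3, 36.3 and 50.3 CPM in EAE replicates 1, 2 and 3. Every EAE library was below every Control library. Its log2 fold change was -1.32 ± 0.25 (SE here and throughout), with an adjusted p of 0.0151. The call of Egr1 was lost without EAE replicate 1, with a log2 fold change of -1.20 and an adjusted p of 0.0732 (2.29% of all genes were then called lower), and stood in the other 5 fits that each left out 1 library.

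Btg2 (ENSMUSG00000020423, chromosome 1, 134075170 to 134079120, GRCm38) was at 31.2, 43.8 and 58.0 CPM in Control and at 15.5, 11.1 and 10.9 CPM in EAE, again with no overlap. The log2 fold change was -1.87 ± 0.27 and the adjusted p 0.00509. Btg2 was called in all 6 fits without 1 library, with folds of 3.06 to 4.14 and an adjusted p of at most 0.0255. It was the only one of the 10 genes with a call in all 6. Non-overlapping ranges with EAE lower were found for 4 of the 10 genes, Egr1, Btg2, Junb and Jund, and for 12.4% of all tested genes. With EAE higher they were found for 0 of the 10 and for 14.2% of all tested genes.

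In the Jun family, the single-exon gene Jun (ENSMUSG00000052684, chromosome 4, 95049034 to 95052222, GRCm38) encodes the classical AP-1 partner of Fos. Jun was at 168, 174 and 269 CPM in Control and 93.5, 102 and 179 CPM in EAE. The ranges overlapped only because EAE replicate 3 exceeded Control replicates 1 and 2. The log2 fold change was -0.77 ± 0.27 and missed the threshold (adjusted p = 0.139). Without EAE replicate 3 Jun passed the threshold (log2 fold change -1.05, adjusted p = 0.0326), as did 4.28% of all genes in the lower direction. With the replicate number as a block it also passed (adjusted p = 0.0427), as did 3.23% of all genes in that direction. The antisense gene Junos covers 7.28% of the exonic bases of Jun, and since the strand setting of the counting is not given in the sources used here, their reads cannot be told apart.

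Junb, a Jun protein that can hold back Jun activity (ENSMUSG00000052837, chromosome 8, 84974484 to 84978718, GRCm38), was at 13.7, 12.4 and 17.7 CPM in Control and 9.34, 9.05 and 8.15 CPM in EAE. Jund, the Jun protein with the steadiest expression in resting cells (ENSMUSG00000071076, chromosome 8, 70698949 to 70700616, GRCm38), was at 32.0, 29.5 and 40.4 CPM in Control and 21.6, 20.5 and 13.4 CPM in EAE. Both were lower in every EAE library than in any Control library, and neither passed the test over all genes. The log2 fold changes were -0.77 ± 0.26 for Junb (adjusted p = 0.133) and -0.91 ± 0.26 for Jund (adjusted p = 0.0786). Jund was called by DESeq2 (adjusted p = 0.0144). Values of both are uncertain, because Prdx2 overlaps 7.52% of the exonic bases of Junb and Gm11175 52.6% of those of Jund on the opposite strand.

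In the Fos family 0 of the 4 genes were called, by edgeR or by DESeq2, and at an unadjusted p under 0.05 Fosb and Fosl1 were lower. Fos, the classical partner of Jun (ENSMUSG00000021250, chromosome 12, 85473890 to 85477273, GRCm38) was at 40.0, 24.1 and 76.6 CPM in Control and 30.1, 24.4 and 64.2 CPM in EAE. The ranges of Fos nearly coincided, with replicate 3 highest in both groups. Its log2 fold change of -0.33 ± 0.45 (adjusted p = 0.761) turned to 0.22 without Control replicate 3.

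Fosb (ENSMUSG00000003545, chromosome 7, 19302696 to 19310051, GRCm38), whose product includes a long-lived form in brain, was at 14.6, 11.9 and 61.9 CPM in Control and 13.7, 10.8 and 9.59 CPM in EAE. Control replicate 3 held 4.68 times the mean of the other Control libraries, which lay close to the EAE values. The log2 fold change was -1.42 ± 0.58 (adjusted p = 0.210), and -0.27 without Control replicate 3.

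Fosl1, which encodes Fra-1 (ENSMUSG00000024912, chromosome 19, 5447547 to 5455946, GRCm38), was the scarcest of the 10 genes. It had 104, 20 and 62 reads in Control and 16, 19 and 29 in EAE, or 4.05, 0.827 and 2.80 against 0.610, 0.661 and 1.04 CPM. EAE replicate 3 lay above Control replicate 2, so the ranges overlapped, and the log2 fold change was -1.81 ± 0.72 (adjusted p = 0.195). The gene Ccdc85b covers 57.2% of the exonic bases of Fosl1 on the other strand, which leaves these values uncertain.

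Fosl2, which encodes Fra-2 (ENSMUSG00000029135, chromosome 5, 32135801 to 32157842, GRCm38), was the 1 gene of the 10 with a positive log2 fold change. It was at 10.5, 12.6 and 26.8 CPM in Control and 13.7, 14.5 and 67.5 CPM in EAE. EAE replicate 3 held 4.77 times the mean of the other EAE libraries, which lay within the Control range. The log2 fold change was 0.85 ± 0.61 (adjusted p = 0.506), and -0.23 without EAE replicate 3.

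Atf3, a zipper protein induced by stress and nerve injury (ENSMUSG00000026628, chromosome 1, 191170296 to 191218039, GRCm38), was at 4.44, 2.23 and 21.3 CPM in Control and 3.204, 3.90 and 7.83 CPM in EAE. Control replicate 3 held 6.39 times the mean of the other Control libraries, the widest such gap among the 10 genes. The log2 fold change of Atf3 was -0.98 ± 0.76 (adjusted p = 0.549), and it turned to 0.49 without Control replicate 3.

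**Figure D2:**
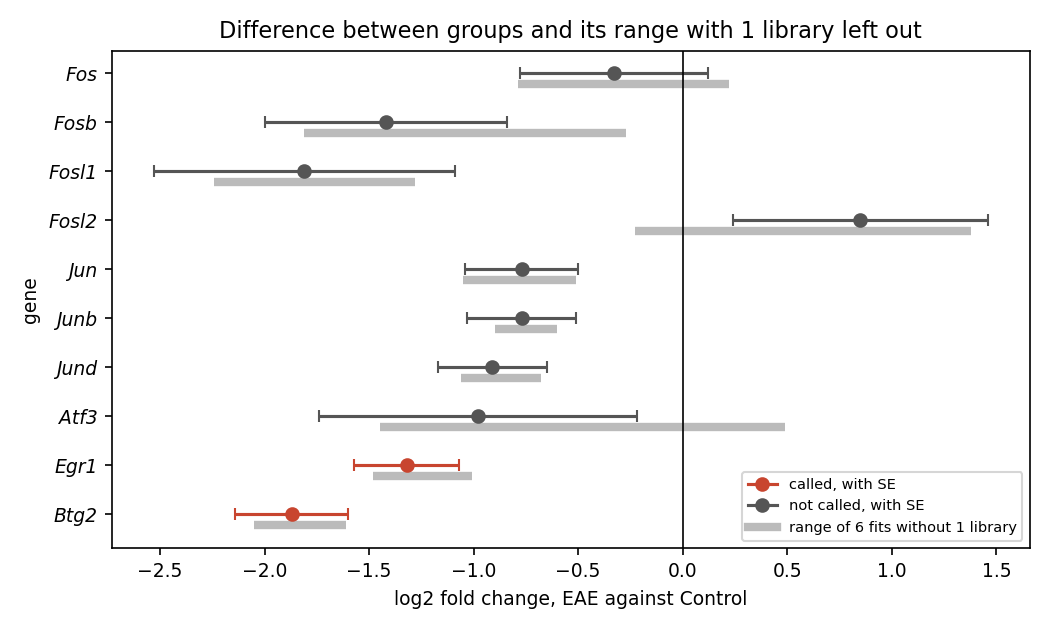
Log2 fold change of EAE against Control for the 10 genes, as points with the SE of the fit, and in grey the range over 6 fits that each left out 1 library. Egr1 and Btg2, in red, were called, and the grey ranges of Fos, Fosl2 and Atf3 cross 0.

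The members also differed in abundance. On the scale of CPM per kilobase of the deposited feature length, Jun had the highest level, 63.9 ± 17.8 in Control and 39.2 ± 14.8 in EAE, with no overlap with the next gene in either group. In Control Egr1 (21.8 ± 7.37), Fos (19.9 ± 11.4), Btg2 (16.2 ± 4.89) and Jund (11.8 ± 1.99) followed, each overlapping its neighbour in range. Junb lay below Jund without overlap and was followed by Fosb, Atf3, Fosl2 and Fosl1, from 7.95 ± 1.52 down to 1.499 ± 0.952, again with overlap between neighbours. In EAE the order was Jun, Fos, Egr1, Jund, Fosl2, Junb, Btg2, Fosb, Atf3 and Fosl1, and Btg2 stood at 4.57 ± 0.947. This order depended on the lengths used. The exonic lengths of GENCODE M21 differ from the deposited ones for Jund (1668 against 2878 bases), Fosb (6243 against 3751), Fosl2 (9680 against 5855), Junb, Fosl1 and Atf3. With them the level of Jund was 20.4 ± 3.44 in Control and 11.1 ± 2.67 in EAE. Fosb was then at 4.72 ± 4.51 and 1.82 ± 0.342 CPM per kilobase, and Fosl2 at 1.72 ± 0.918 and 3.30 ± 3.18. Btg2 was the gene with rank 4 in Control and rank 7 in EAE by the deposited lengths, but held rank 5 in both groups by the M21 lengths. Jun stood first in both groups by either length.

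Within the Fos family, Fos made up 63.5% ± 4.47 of the summed level per kilobase in Control and 65.4% ± 1.22 in EAE, between 58.9% and 67.8% in every library. The other shares moved in single libraries. Fosb made up 29.9% in Control replicate 3 and 15.5% and 19.7% in Control replicates 1 and 2, and in EAE it took 19.1%, 17.8% and 6.09%. Fosl2 took 27.4% in EAE replicate 3, against 7.17% to 15.4% in the other libraries. Within the Jun family, Jun made up 76.1% ± 2.08 in Control and 76.3% ± 8.62 in EAE, with 86.1% in EAE replicate 3. The same library had the lowest shares of Junb, 6.78%, and Jund, 7.13%. By the M21 lengths the share of Jund was higher, 22.7% ± 1.90 in Control and 11.8% in EAE replicate 3, and that of Jun in EAE replicate 3 was 82.9%. By those lengths Fos made up 73.2% ± 3.07 in Control and 75.4% ± 1.02 in EAE, and Fosl2 took 19.2% in EAE replicate 3. EAE replicate 3 kept the highest shares of Jun and Fosl2 and the lowest of Junb and Jund by either length.

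**Figure D3:**
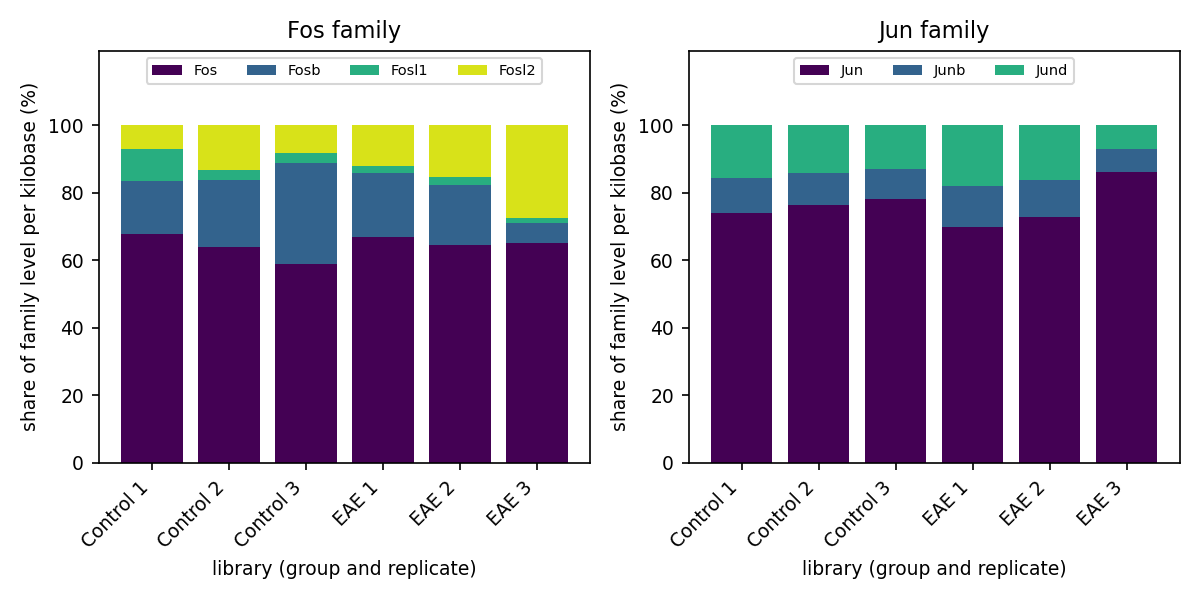
Share of each gene in the summed level per kilobase of the Fos family (left) and Jun family (right), by the deposited lengths, as stacked bars for each library. Fos and Jun make up most of their family in every library, and EAE replicate 3 has the largest shares of Fosl2 (27.4%) and Jun (86.1%).

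Promoter sequences from RefSeq (GRCm38.p6), the 250 bases before each annotated start, were matched by symbol and used for 8 of the 10 genes; those of Fosl1 and Egr1 were not used here. Those of Btg2, Jun and Fos are shown because Btg2 was called and Jun and Fos are the most abundant of their families. Capitals mark the letters searched, on both strands unless stated. These were the cyclic AMP response element TGACGTCA with its relative TGACNTCA, its core TGACG, the AP-1 element TGANTCA, the Egr element GCGNGGGCG and, on the gene's strand only, the TATA element TATAAA.
Btg2, chr1:134079156-134079405, minus strand: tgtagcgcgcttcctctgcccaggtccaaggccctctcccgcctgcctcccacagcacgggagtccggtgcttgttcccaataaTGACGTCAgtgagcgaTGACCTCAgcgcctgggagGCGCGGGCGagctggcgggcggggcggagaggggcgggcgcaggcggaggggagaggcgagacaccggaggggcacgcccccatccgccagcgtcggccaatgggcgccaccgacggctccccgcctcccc
Jun, chr4:95052223-95052472, minus strand: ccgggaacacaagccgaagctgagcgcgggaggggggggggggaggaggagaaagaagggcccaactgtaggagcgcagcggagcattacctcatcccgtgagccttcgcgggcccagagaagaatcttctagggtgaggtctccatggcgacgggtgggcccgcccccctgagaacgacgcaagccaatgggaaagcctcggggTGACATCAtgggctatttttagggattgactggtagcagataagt
Fos, chr12:85473640-85473889, plus strand: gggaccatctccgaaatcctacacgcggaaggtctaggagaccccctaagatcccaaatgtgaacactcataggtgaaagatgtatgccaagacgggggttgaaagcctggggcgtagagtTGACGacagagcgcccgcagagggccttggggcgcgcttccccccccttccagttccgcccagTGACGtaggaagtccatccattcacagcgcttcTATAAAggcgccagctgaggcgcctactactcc

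Btg2 held the full TGACGTCA, beginning 166 bases before its start, which 1.55% of 32851 promoter windows of this length held. It also held TGACCTCA at 150 bases and the Egr element GCGCGGGCG at 131 bases. The window of Jun held TGACATCA at 45 bases. TGACNTCA, which overlaps the full element and its core, was found in 7.49% of all windows and in those of Btg2 and Jun. The window of Fos held the core TGACG at 129 and 66 bases and TATAAA at 33 bases. The core was found in 5 of the 8 windows (Btg2, Fos, Fosb, Junb and Atf3) and in 17.8% of all windows, the Egr element in 3 of the 8 (Btg2, Fosb and Fosl2) and in 4.70% of all, TATAAA in 1 of the 8 and in 7.59% of all, and TGANTCA in 0 of the 8 and in 6.75% of all. These matches describe letters in the reference and were not read as binding.

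Other immediate early genes were examined as a list of 36, of which 33 had enough reads to be tested. In EAE 6 of these fell and 0 rose, where 4.33% of all tested genes were called lower and 2.82% higher. A log2 fold change below 0 was found for 26 of the 33 and for 49.7% of all tested genes, and the list median was -0.61. At an unadjusted p under 0.05, 15 were lower and 3 higher, against 10.6% and 9.60% of all tested genes. DESeq2 called 11 lower and 2 higher, against 7.10% and 5.65% of all genes. Ccn1, a secreted matrix protein induced by growth factors and stretch, fell 4.38-fold from 19.8 ± 8.61 to 4.64 ± 1.07 CPM (adjusted p = 0.0151). Klf4 and Klf2, zinc finger factors that respond to blood flow in endothelium, fell 3.86-fold and 2.80-fold (adjusted p = 0.00532 and 0.00871) and were called in all 6 fits without 1 library. Ppp1r15a, a stress-induced regulator of translation, fell 2.79-fold (adjusted p = 0.0340), with a call in only 1 of those 6 fits. The remaining called genes, named here after their values were seen, were the RNA-binding protein gene Zfp36l1 and the phosphatase gene Dusp1, at 2.46-fold and 2.02-fold lower. Gm26669 overlaps 55.9% of the exonic bases of Zfp36l1, which leaves its value uncertain. Leaving out Control replicate 1, or EAE replicate 1, left 3 of the list called lower. Ccn1 then missed the threshold in both cases (adjusted p = 0.0623 and 0.0676), and Dusp1 missed it in 4 of the 6 fits without 1 library, with adjusted p-values up to 0.123, when replicate 1 of either group, EAE replicate 2 or Control replicate 3 was absent. Ppp1r15a kept it only without EAE replicate 2 (adjusted p up to 0.128 in the others).

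Among the neighbours of these factors in the pathway, 0 of 8 tested AP-1 dimer partners were called, with a median log2 fold change of 0.12. Their most abundant members, Atf2 and Mafg, were at 115 ± 14.1 and 24.3 ± 6.38 CPM in Control and 138 ± 11.8 and 28.8 ± 2.30 CPM in EAE. At an unadjusted p under 0.05 Maf was lower and Batf2 higher among the partners, and DESeq2 called 1 lower and 0 higher. Over all tested genes 10.6% were lower and 9.60% higher at that unadjusted p. Calls over all tested genes were 4.33% lower and 2.82% higher by edgeR, and 7.10% lower and 5.65% higher by DESeq2. Of 20 kinases and factors that act upstream, 3 fell and 0 rose, with a median of -0.10, and DESeq2 called 3 lower and 1 higher. These were Elk3 (2.98-fold), Mrtfb (1.84-fold) and Elk4 (1.55-fold), cofactors of the serum response factor that drives Fos and Egr1 (adjusted p = 0.0219, 0.0148 and 0.0328). Leaving out replicate 1 of either group left 0 of the 3 called, and Elk4 lost its call in each of the 6 fits without 1 library (adjusted p up to 0.142). Elk3 also lost it without Control replicate 2 (adjusted p = 0.0940). Of 8 corepressors of Egr and partners or relatives of Btg2, only Btg1, the closest relative of Btg2, was called. Btg1 fell 2.25-fold from 35.6 ± 8.23 to 16.4 ± 2.48 CPM (adjusted p = 0.0165), and missed the threshold when replicate 1 of Control or of EAE was left out (adjusted p = 0.0557 and 0.0855). Of 14 genes often linked to AP-1, 9 were tested and 0 called. Their median of 1.24 was the value of Timp1 (SE 1.17), which had 2, 24 and 1 reads in Control replicates 1, 2 and 3. At an unadjusted p under 0.05, 2 of the 9 were lower and 3 higher, and DESeq2 called 1 lower and 2 higher. The 2 lower, named after their values were seen, were Vegfa and Hbegf. Vegfa was at 30.9 ± 7.66 CPM in Control and 16.1 ± 5.51 CPM in EAE. Hbegf was at 9.69 ± 2.16 CPM in Control and 5.47 ± 0.75 CPM in EAE. Cd44, a hyaluronan receptor, was at 2.30, 5.37 and 4.88 CPM in Control and 12.2, 3.13 and 125 CPM in EAE, and Ccnd1, a cyclin of G1 phase, at 96.6, 126 and 122.3 CPM in Control and 184, 177 and 393 CPM in EAE. EAE replicate 3 was the highest EAE library for 8 of the 9 tested AP-1 linked genes and for 47.8% of all tested genes.

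**Figure D4:**
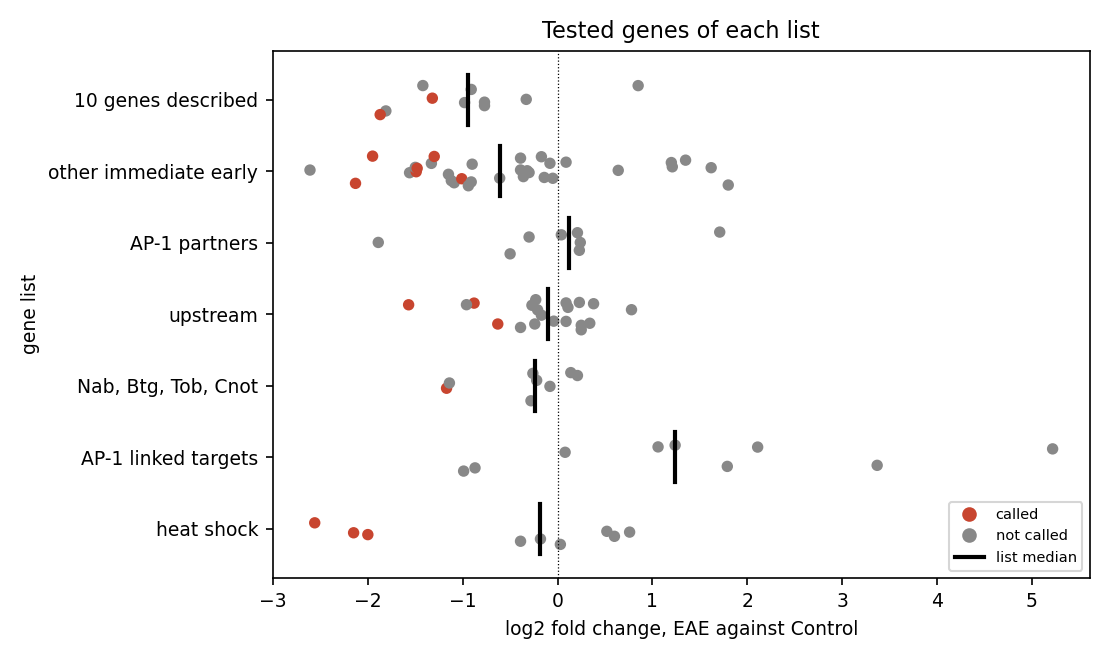
Log2 fold change of every tested gene of the 10 described and of 6 related lists, with called genes in red and the list median as a black bar. The median of the 10 genes is -0.95 and that of the other immediate early genes -0.61, and no called gene lies above 0.

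The genes with the profiles most like those of Fos, Jun and Egr1 were found by the root mean square difference of log2 CPM over the 6 libraries, after centring each gene on its mean, among 8418 genes with at least 10 CPM. Nearest to Fos were Hist1h4d (0.14 log2 units), Plppr3 (0.18) and Zfp523 (0.21), all high in replicate 3 of both groups. Near to Jun were Ski (0.08) and Lasp1 (0.15). Nearest to Egr1 were Btg1 (0.14), Tpcn1 (0.16) and Ahdc1 (0.18). Among the 10 genes themselves the distance from Egr1 was 0.29 to Jun, 0.38 to Junb, 0.41 to Btg2, 0.45 to Jund and 0.66 to Fos, and it was 1.12 to Fosl2.

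Markers of vessel cells and heat shock genes moved between the groups as well. For comparison, edgeR called 4.33% of all tested genes lower and 2.82% higher. All 10 markers of pericytes and smooth muscle were called lower, and their summed level was 3599 to 6050 CPM in Control and 622 to 1015 CPM in EAE. All 10 endothelial markers were called lower, at 1318 to 2159 CPM in Control and 282 to 399 CPM in EAE. Control replicate 3 had the highest Control sum of the 10 immediate early genes (710 CPM). It also had the lowest Control sums of both vessel lists (3599 and 1318 CPM). In EAE, replicate 3 had the highest immediate early sum (412 CPM) and the lowest pericyte and smooth muscle sum (622 CPM). The lowest endothelial sum in EAE was that of replicate 2 (282 CPM). The part of vessel cells in the fall of Egr1 and Btg2 was not tested. In bulk samples fewer cells of a type and less RNA per cell cannot be told apart. Of 9 precursor markers 2 were called higher and 0 lower, 4 had a log2 fold change below 0, and their summed level was 2747 to 4202 CPM in Control and 4466 to 6212 CPM in EAE. Cspg4, the gene whose promoter drives Cre, was at 337, 385 and 339 CPM in Control and 175, 149.7 and 313 CPM in EAE, below every Control library (log2 fold change -0.80, adjusted p = 0.0764). Without EAE replicate 3 it was called lower (log2 fold change -1.12, adjusted p = 0.00176), and DESeq2 also called it. Of 8 markers of newly formed oligodendrocytes 6 were called higher and 0 lower, and their sum was 1261 to 1516 CPM in Control and 2899 to 3434 CPM in EAE. Of 10 markers of mature oligodendrocytes 1 was called higher and 0 lower, with sums of 30297 to 32988 CPM in Control and 27739 to 41533 CPM in EAE. The part of these cells in the immediate early values was not tested.

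Myeloid markers summed to 18.8 to 26.7 CPM in Control and to 131, 24.6 and 350 CPM in EAE replicates 1, 2 and 3, with 3 of 9 tested called higher. Of these sums Lyz2 alone took at most 1.31 CPM in Control and 94.0, 5.88 and 237 CPM in EAE replicates 1, 2 and 3. The microglial markers P2ry12 and Tmem119 stood at means of 2.76 and 1.499 CPM in Control and 1.84 and 0.517 CPM in EAE. They were the 2 of the 9 tested myeloid markers with a log2 fold change below 0. Neither was called (adjusted p = 0.772 and 0.255), and only Tmem119 was lower in every EAE library than in any Control library. Tmem119 had at most 49 reads in a library. Cx3cr1 and Csf1r, of the same list, had log2 fold changes of 0.26 and 0.73, also without a call. T cell markers summed to at most 0.858 CPM in Control and to 1.37, 0.209 and 16.0 CPM in EAE replicates 1, 2 and 3. Of the sum in EAE replicate 3, Cd3e alone took 9.73 CPM. Cd3d, Cd3e, Cd3g, Cd4 and Trbc2 had 0 reads in Control. Astrocyte markers summed to 50.9 to 84.5 CPM in Control and 91.5 to 137 CPM in EAE, with 1 of 6 tested called higher. Neuron markers summed to 15.7 to 29.6 CPM in Control and 52.6 to 119 CPM in EAE, with 1 of 5 tested called higher. Of these sums Tubb3, the called gene, took 6.37 to 14.5 CPM in Control and 37.2 to 107 CPM in EAE. A log2 fold change below 0 was found for 2 of the 5. Fibroblast markers summed to 35.6 to 74.6 CPM in Control and 13.8 to 28.6 CPM in EAE, with 1 of 3 tested called lower. That gene was Igf2, at 29.2 to 45.3 CPM in Control and 8.47 to 11.0 CPM in EAE. Other genes overlap 64.5% of its exonic bases. The part of myeloid cells, T cells, astrocytes, neurons and fibroblasts in the high Fosl2 and Fos values of EAE replicate 3 was not tested. Of 9 heat shock genes, which respond to stress and are also induced by handling of tissue, 3 fell and 0 rose. DESeq2 called 3 of the 9 lower and 2 higher. Over all tested genes edgeR called 4.33% lower and 2.82% higher, and DESeq2 7.10% lower and 5.65% higher. Hspb1 was at 59.5, 48.9 and 62.1 CPM in Control and 9.08, 9.47 and 11.4 CPM in EAE, a 5.91-fold fall (adjusted p = 8e-04). Hsph1, Hspa8 and Dnaja1, named after their values were seen, had higher values in every EAE library than in any Control library. That pattern was found for 14.2% of all tested genes, and its reverse for 12.4% and for 3 of the 9 heat shock genes. Log2 fold changes of Hsph1, Hspa8 and Dnaja1 were 0.76, 0.60 and 0.52 (adjusted p = 0.0621, 0.0661 and 0.125). Without EAE replicate 3 these 3 were called higher (adjusted p = 0.00413, 0.00874 and 0.0112). In that fit 1150 of 17543 tested genes were called in either direction, 750 of them lower. The inducible Hsp70 genes Hspa1a and Hspa1b, near-identical copies whose reads can be shared, fell 4.43-fold and 4.01-fold, and like 9 of the 10 immediate early genes they were highest in Control replicate 3, at 149 and 109 CPM. The part of handling in the immediate early genes was not tested.

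**Figure D5:**
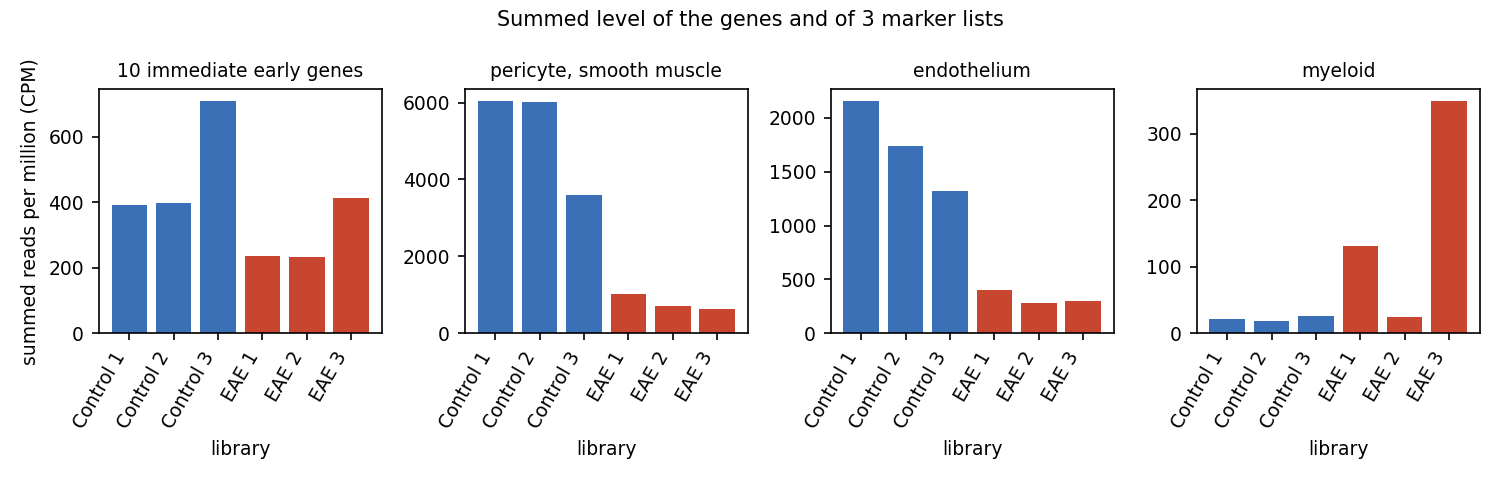
Summed CPM in each library of the 10 immediate early genes and of the marker lists of pericytes and smooth muscle, endothelium and myeloid cells, each on its own axis from 0. Control replicate 3 has the highest immediate early sum (710 CPM) and the lowest vessel sums among Control. EAE replicate 3 has the highest myeloid sum (350 CPM, of which Lyz2 gives 237 CPM).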

How the data were processed

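The authors deposited raw read counts per Ensembl gene for 6 libraries, with no normalization, and a feature length in bases, per the file headers. The submitters' processing notes name FastQC, STAR, featureCounts, edgeR 3.24.3 and mm10 without their roles. The strand setting, annotation release and rules for multi-mapped reads were not given in the sources used here. Symbols and coordinates came from GENCODE M21 (GRCm38) by Ensembl identifier. Of the listed genes, Atf7 and Lhfpl3 had no row under their symbol, and Tmem2 was matched through RefSeq synonyms.

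Genes were kept by filterByExpr of edgeR 4.0.16 (minimum count 10, minimum total 15), normalised with TMM factors and tested with the robust quasi-likelihood F test in R 4.3.3, 2-sided, adjusted by Benjamini-Hochberg over all 16966 genes. The biological coefficient of variation was 39.6%. The SE is the size of the log2 fold change over the root of F. CPM uses raw library totals, and log2 CPM a prior count of 2. DESeq2 1.42.0 and limma 3.58.1 served as alternatives, and the fit was tested on simulated data. A permutation test of 3 against 3 cannot go below a 2-sided p of 0.1, so none is given. The 10 genes and all lists were chosen with earlier results of these data known. Named genes were the 10, up to 4 called genes of each list with the largest change (where none was called, the 2 most abundant), and the 3 nearest profiles to Fos, Jun and Egr1, of which 1 is not reported here. No list was tested as a set.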

Additional observations from a re-analysis of the deposited data

How the results depend on the processing

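Of the 10 genes, 2 were called with upper-quartile, RLE or library-size scaling, with limma-voom and without a filter on low counts, and 3 with DESeq2 (Jund added) and with both replicates 3 left out (Jun added). Leaving out 1 library in turn gave 1 to 3 called. Among all genes 1212 were called, 440 to 1150 with 1 library left out, 2162 by DESeq2 and 1631 with both replicates 3 left out, an alternative chosen after seeing the data, as was the M21 length. Over all tested genes, deviations from group means showed little correlation between libraries of the same number (0.0155, -0.0372 and -0.0326 for numbers 1, 2 and 3). Whether libraries of the same number were prepared together cannot be told from this. A fit with the replicate number as a block called 818 genes and 3 of the 10, Jun added (adjusted p = 0.0427). With 1 library left out the log2 fold change ranged from -0.79 to 0.22 for Fos, -1.45 to 0.49 for Atf3, -0.57 to 0.18 for Hist1h4d, -0.67 to 0.28 for Plppr3 and -0.69 to 0.05 for Zfp523, each highest without Control replicate 3, and from -0.23 (without EAE replicate 3) to 1.38 for Fosl2. That of Plppr3 was also positive, 0.10, without EAE replicate 2, and that of Atf3 was 0.07 without both replicates 3. The cause was not tested. Of the other immediate early genes 6 were called lower, 11 by DESeq2 and 3 with the replicate block. With 16 to 104 reads a library, Fosl1 is the gene most limited by depth.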

Other observations

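Several other immediate early genes had higher means in EAE without a call by edgeR over all 6 libraries, and they are named here after their values were seen. Myc, a growth factor-induced regulator of cell division, was at 10.9, 11.3 and 11.8 CPM in Control replicates 1, 2 and 3 and 20.6, 14.9 and 76.4 CPM in EAE replicates 1, 2 and 3 (log2 fold change 1.62, edgeR adjusted p = 0.106), with no overlap between the groups. Its log2 fold change was 0.65 without EAE replicate 3 (adjusted p = 0.204) and 1.97 without EAE replicate 2, where it was called (adjusted p = 0.0448). DESeq2 called Myc and Gadd45b higher (adjusted p = 0.00809 and 0.0141). Trib1, a pseudokinase, was at 20.5, 20.2 and 20.4 CPM in Control and 24.8, 19.6 and 185 CPM in EAE (adjusted p = 0.222), so its difference rests on EAE replicate 3. Gadd45b, a stress-induced gene, was at 9.50, 8.27 and 5.56 CPM in Control and 11.2, 18.2 and 26.8 CPM in EAE (adjusted p = 0.0842), again without overlap. EAE was higher without overlap for 3 of the 33 tested genes (Myc, Gadd45b and Csrnp1) and for 14.2% of all tested genes. It was lower without overlap for 14 of the 33 and for 12.4% of all tested genes. Of the 33 tested other immediate early genes, 24 had their highest EAE value in replicate 3, as did 47.8% of all tested genes.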
